A study of Mus musculus with 2 samples.

Results

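The respiratory chain is described here through 97 of the 31053 gene IDs in the count tables, chosen by symbol: 84 nuclear genes of the Nduf, Sdh, Uqcr, Cox and Atp5 families and the 13 protein genes of the mitochondrial genome. The chain consists of the proton-pumping complexes I, III and IV, of complex II, which feeds it from succinate, and of complex V, the ATP synthase that uses the proton gradient. Nuclear genes supply all of complex II and most subunits of the others, and the mitochondrial genome supplies core subunits of complexes I, III, IV and V. The mitochondrial genome is transcribed as long precursors from both strands of a circular DNA. Natural killer (NK) cells are lymphocytes that are known to raise respiration on prolonged cytokine stimulation.

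The cells came from spleens of C57BL/6 mice and were sorted by flow as CD27+CD11b+ NK cells. The control group was EP3F/F, in which the gene of the EP3 receptor for prostaglandin E2 (Ptger3) is floxed. The knockout group was NKp46CreEP3F/F, which carries the same floxed alleles and a Cre that the NKp46 gene drives in NK cells and other NKp46+ cells. In each group 2 mice were pooled into 1 droplet library of 3' tags, counted as unique molecular identifiers (UMIs). With 1 library per group there is no test of the genotype and no spread between animals. Intervals below are 95% intervals for counting error only, and cells are not replicates.

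The cell filter kept 10928 control and 10023 knockout cells, and 33 barcode sequences occurred in both libraries. Below, paired values give the control library first. Gates on marker UMIs gave 8036 and 7750 resting NK cells, which held NK gate genes at 5914 and 6062 counts per 1000000 UMIs (CPM) and T cell genes at 42.6 and 53.5 CPM. Ptger3 had 9 UMIs in the resting cells of the control and 0 in those of the knockout, where a count of 0 allows up to 3. The control library was deeper, with a median of 5516 and 3741.5 UMIs per resting cell. In these cells 6 heat shock genes summed to 3497 and 1417 CPM and red cell genes to 23.1 and 130.1 CPM. The part of heat shock RNA in the genotype values below was not tested. Genotype sums of the resting cells without UMIs of red cells, platelets or other cell types (5177 and 5115 cells) are given at the end.

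Resting NK cells held UMIs of nearly the whole chain. All 13 mitochondrial genes and 74 of the 84 nuclear genes averaged at least 10 CPM over both libraries and are called measured. Nuclear members summed to 18549 and 20308 CPM and mitochondrial members to 35745 and 39785 CPM. The ratio of mitochondrial to nuclear UMIs, called the genome ratio below, was 1.93 (1.92 to 1.93) and 1.96 (1.95 to 1.97). In the median resting cell, mitochondrial members took 3.45 and 3.86% of UMIs, and 47 and 42 different nuclear members had a UMI. Because the 13 members are all the mitochondrial genes of the tables, the filter of cells at 10% mitochondrial UMIs acts on these members directly.

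The 10 nuclear IDs below the measured level were mostly isoforms known from other tissues. Cox4i1, the common form of complex IV subunit 4, had 36380 and 25901 UMIs, and its lung-type partner Cox4i2 had 0 and 3. Cox6a1 had 12223 and 7808 UMIs and the heart and muscle form Cox6a2 had 358 and 259. Cox6b1 had 19639 and 14415 and the testis form Cox6b2 had 102 and 84. In each of these pairs the same isoform held nearly all UMIs in both libraries. Cox7a2 had 16391 and 10742 UMIs, against 28 and 14 for the muscle form Cox7a1. Cox8a had 45523 and 34242, against 0 and 0 for Cox8b and 0 and 1 for Cox8c. Ndufa4 had 22709 and 16065, against 1 and 0 for Ndufa4l2, and Cox7b had 14423 and 10177, against 0 and 0 for Cox7b2. The remaining unmeasured IDs were Atp5s, with 210 and 210 UMIs, and the second of 2 IDs named Atp5o, with none.

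UMIs count 3' ends and were not scaled to length, so levels of different genes are compared only roughly. On that scale the most abundant member of complex I in the control was mt-Nd2 (1956 and 1928 CPM) and that of complex II was Sdhb (101 and 122 CPM). For complexes III, IV and V they were mt-Cytb (2696 and 3065), mt-Co3 (6530 and 7024) and mt-Atp6 (7741 and 9255). The most abundant nuclear members were Ndufa13 of complex I (384 and 387 CPM), Uqcrh, the hinge protein of complex III (772 and 772), Cox8a of complex IV (976 and 1097) and Atp5e, the epsilon subunit of the ATP synthase (815 and 791).

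The mitochondrial genes differed widely in level although all but mt-Nd6 lie on 1 strand. mt-Atp8 was counted at 166 and 174 CPM beside 7741 and 9255 CPM for mt-Atp6, and this pair is known to share a messenger RNA. Their genes overlap by 43 bases (chrM:7927-7969, plus strand, GRCm38, GENCODE M21). The end of mt-Atp8 and the start of mt-Atp6, 60 bases each, show the stretch, in capitals, where a read cannot be told apart between them.
mt-Atp8: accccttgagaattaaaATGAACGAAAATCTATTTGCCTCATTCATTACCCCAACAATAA
mt-Atp6: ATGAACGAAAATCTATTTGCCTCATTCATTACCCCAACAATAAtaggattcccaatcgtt
mt-Nd4l and mt-Nd4 share 7 bases in the same way. mt-Nd6 is the one member on the minus strand, and its end overlaps that of mt-Nd5 by 14 bases (chrM:13552-13565). The last 30 bases of both, each on its own strand, are shown because mt-Nd6 was the member that differed most between the libraries. Capitals mark the shared stretch, which is the reverse complement from one gene to the other.
mt-Nd5: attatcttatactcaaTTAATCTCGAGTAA
mt-Nd6: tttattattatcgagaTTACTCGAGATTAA
The strand setting of the counting is not given in the sources used here, so reads of a gene and of the strand opposite it cannot be told apart with certainty.

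In the knockout library, nuclear respiratory chain transcripts of resting NK cells were slightly higher, most of all in complexes I and II. A difference of at least 0.32 on the log2 scale (1.25-fold) is called higher or lower, which describes these libraries without testing them. Of 74 measured nuclear members, 12 were higher and 0 lower, where all 7323 measured genes were 15.0% higher and 29.4% lower. By median-of-ratios scaling, which sets the median gene to 0, 22 nuclear members were higher and all genes were 19.8% higher and 25.2% lower. The share of higher members was near the background in CPM and above it by median-of-ratios scaling. The median log2 difference was 0.17 for nuclear members and -0.065 for all measured genes, and 68 of the 74 lay above 0. The nuclear sum differed by 0.13 (0.13 to 0.14).

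Complex I, which oxidises NADH, had 9 of its 35 nuclear members past the bound, and its nuclear sum differed by 0.23 (0.22 to 0.24). Ndufa12, an accessory subunit, was counted at 71.3 and 112 CPM, a log2 difference of 0.66 (0.59 to 0.73). Ndufv1, which carries the NADH site, had 34.8 and 49.3 CPM (log2 difference 0.50). Ndufs3, a core subunit of the peripheral arm, had 61.1 and 84.1 CPM (0.46). These core and accessory subunits were all higher in the knockout library. Also past the bound were Ndufa7 (0.40), Ndufb4 (0.37), Ndufc2 (0.36), Ndufv2 (0.36) and Ndufv3 (0.34).

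Complex II, succinate dehydrogenase, differed by 0.31 (0.28 to 0.35) in sum. Its membrane anchors Sdhd and Sdhc had 63.9 and 86.2 CPM (0.43) and 40.3 and 50.7 CPM (0.33), both past the bound. The flavoprotein Sdha had 91.9 and 110.1 CPM (0.26) and the iron-sulphur subunit Sdhb 101 and 122 CPM (0.27), both short of it. All 4 genes of the complex were thus higher in the knockout library, by unequal amounts.

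Complexes III, IV and V differed less, by 0.11 (0.10 to 0.13), 0.10 (0.088 to 0.10) and 0.068 (0.06 to 0.077) in nuclear sum. Uqcrc2, a core protein of complex III, was their only member past the bound, with 102 and 132 CPM (0.37). The lowest nuclear members were Atp5h, of the stalk of the ATP synthase (722 and 654 CPM, -0.14), Cox6a1 (262 and 250.2, -0.066) and Atp5c1, its rotor shaft (278 and 268, -0.05).

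**Figure D1:**
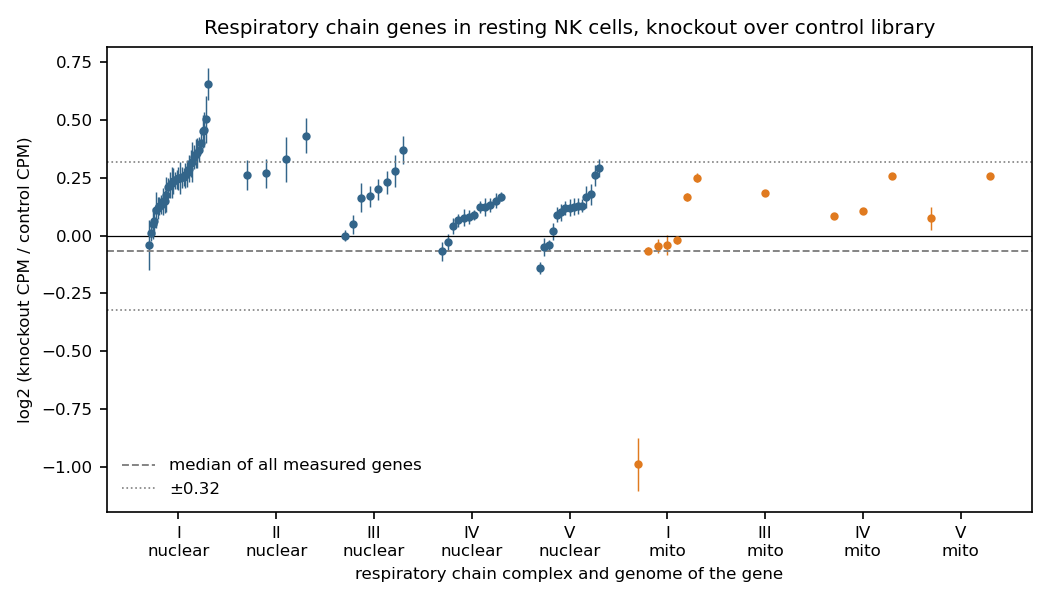
Log2 ratio of CPM, knockout over control, of each measured respiratory chain gene in resting NK cells, by complex and genome. The highest nuclear point is Ndufa12 of complex I at 0.66, and 1 mitochondrial gene, mt-Nd6 at -0.99, lies far below the rest.

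Ratios between these libraries varied with transcript length and with depth. The measured nuclear members had a median exon length of 1696.5 bases, against 4629 for all measured genes. Relative to the 300 genes most like each member in exon length, the median nuclear member stood at 0.033, with 6 members higher and 1 lower (background 16.1% and 18.5%). Complex I then had 3 of 35 nuclear members higher, a share below that background, and its median went from 0.25 to 0.090. Complex II had 0 of 4 higher, and its median went from 0.30 to 0.23. In resting cells of 4000 to 4999 UMIs in both libraries (1863 and 1774 cells), 11 nuclear members were higher and 0 lower, where all genes were 11.5% higher and 37.4% lower.

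The mitochondrial sum differed by about as much, 0.15 (0.15 to 0.16), but the 13 genes were uneven. mt-Atp6, which forms part of the proton path of the ATP synthase, had 7741 and 9255 CPM (0.26). mt-Co2, which takes electrons from cytochrome c, had 5676 and 6784 CPM (0.26). mt-Nd3 had 878 and 1046 CPM (0.25). These were the highest, and none reached the bound. Next came mt-Cytb (0.19), mt-Nd1 (0.17), mt-Co3 (0.11), mt-Co1 (0.085) and mt-Atp8 (0.075). Below 0 were mt-Nd2 (-0.02), mt-Nd4l (-0.041), mt-Nd5 (-0.047) and mt-Nd4 (-0.066), all of complex I. Relative to genes of like exon length the median mitochondrial member turned from 0.085 to -0.11, and only mt-Atp6, mt-Co2 and mt-Nd3 stayed above 0.

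mt-Nd6, a membrane subunit of complex I, stood apart. It had 2529 and 852 UMIs, or 54.2 and 27.3 CPM, a log2 difference of -0.99 (-1.10 to -0.88). It was lower in the knockout library in each class of cells. The maturation classes of resting cells were cut at different scores in the 2 libraries. From the least to the most mature, mt-Nd6 had 53.9 and 26.8, 55.6 and 26.7 and 53.4 and 29.0 CPM. In S phase it had 59.7 and 31.5 CPM. In the gate for group 1 innate lymphoid cells (ILC1) it had 49.2 and 23.1 CPM, a log2 difference of -1.09 (-1.97 to -0.22). The intervals of these 5 classes exclude 0. Counts were small elsewhere, and the intervals include 0: 9 and 21 UMIs in macrophages (-0.73 (-1.92 to 0.58)), 8 and 4 in MHC class II-high cells (-1.81 (-3.99 to 0.10)), 62 and 2 in activated and 52 and 11 in G2/M cells.

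**Figure D2:**
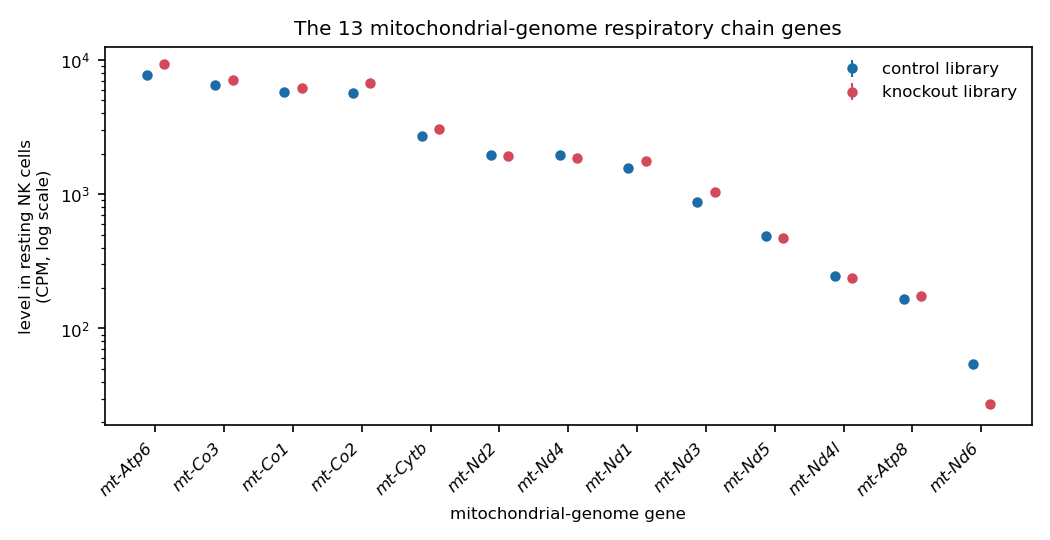
Level of the 13 mitochondrial-genome genes in resting NK cells of both libraries, in CPM on a log axis. mt-Nd6, at 54.2 and 27.3 CPM, is the gene whose points lie farthest apart.

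Genes that serve the chain without being members of it were read from 5 lists, beside the same 15.0% of all genes higher and 29.4% lower. Of 35 measured assembly factors, 16 were higher and 1 lower in the knockout library, with Higd1a (1.42) and Sdhaf1, which matures Sdhb (1.07), highest and Cox16 (-0.32) and Uqcc2 (-0.29) lowest. Of 11 other subunits and electron carriers, 2 were higher and 0 lower: Atpif1, the inhibitor of the ATP synthase (0.41), and Etfa (0.37), with Cycs (-0.12) and Etfdh (0.031) lowest. Of 16 genes of the tricarboxylic acid cycle, 2 were higher and 0 lower: Idh3g (0.48) and Suclg1 (0.42), with Sucla2 (-0.21) and Dlst (-0.17) lowest. Of 12 genes of mitochondrial DNA and RNA upkeep, 1 were higher and 1 lower: Mterf1a (0.49) and Lrpprc, which stabilises mitochondrial messenger RNAs (-0.80), with Mterf4 (0.30) and Pnpt1 (-0.24) next to them. Of 9 nuclear regulators, 0 were higher and 3 lower: Gabpa (-0.60), Gabpb2 (-0.58) and Yy1 (-0.49), a share near that of all genes, with Esrra (0.17) and Tfe3 (-0.023) highest. The list medians, in the same order, were 0.22, 0.10, 0.081, 0.053 and -0.25.

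Across the maturation score of the sorted cells the chain was close to level. These cells had been sorted as CD27+CD11b+, so the classes below rank cells within that sort and do not cover NK cells outside it. Cd27 and Itgam, the gene of CD11b, are among the markers of the score. Resting cells were divided within each library into 3 classes of like size by the share of mature markers among maturation UMIs, a continuous score with 29.0% and 32.1% of cells within 5 points of a boundary. The boundaries lay at 31.0% and 53.1% in the control and at 18.75% and 40.0% in the knockout. A class of the same name thus covers different scores in the 2 libraries. Between the most and the least mature class, no member passed 0.32 in both libraries, where all genes were 2.0% higher and 1.68% lower (1.54% and 2.21% by median-of-ratios scaling). The nuclear sums differed by -0.0075 and 0.021 and the mitochondrial sums by -0.055 (-0.061 to -0.05) and -0.072 (-0.079 to -0.066). The small mitochondrial difference had 1 direction in both libraries. From the least to the most mature class, median depth went from 6037 to 5093.5 and from 4020 to 3510 UMIs. NK transcripts kept out of the gates went from 26374 to 36709 and from 31732 to 46780 CPM. The part of depth and of these transcripts was not tested.

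Of the mitochondrial genes, 9 of 13 were below 0 in both libraries, where the median of all measured genes was 0.047 and 0.038. mt-Co1, the catalytic subunit of complex IV, went from 6094 to 5513 and from 6540 to 5748 CPM from the least to the most mature class (-0.14 and -0.19). mt-Nd5 went from 506 to 471 and from 498 to 433 CPM (-0.10 and -0.20). Of nuclear members, Ndufv2 (0.11 and 0.14), Sdhb (0.13 and 0.086) and Ndufs5 (0.079 and 0.094) were highest. Cox7a2l, a supercomplex factor (-0.11 and -0.14), Uqcrh (-0.12 and -0.10) and Atp5g3 (-0.12 and -0.075) were lowest. The genome ratio was 1.96 and 2.02 in the least mature and 1.9 and 1.89 in the most mature cells.

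Activated cells, gated on the chemokines Ccl3 and Ccl4 and on Nr4a1 or Nr4a3 (175 and 32 cells), also had no member past the bound in both libraries, where all genes were 2.75% higher and 8.24% lower (3.74% and 6.39% by median-of-ratios scaling). Among genes with at least 10 UMIs in each class, 0 of 69 nuclear members were higher and 0 lower, where all genes were 2.90% higher and 1.60% lower. Relative to resting cells, the nuclear sums differed by 0.0028 (-0.015 to 0.021) and 0.036 (-0.015 to 0.086) and the mitochondrial sums by -0.062 (-0.075 to -0.049) and -0.059 (-0.10 to -0.022). The mitochondrial direction turns with the scaling, to 0.0079 by median-of-ratios as a mean of both libraries. Activated cells were deeper than resting cells, with median UMIs of 7089 and 4497.5, and the part of depth was not tested. Uqcrfs1, the Rieske protein of complex III, went from 99.4 to 119 and from 111 to 137 CPM (0.26 and 0.30). Atp5g3, of the rotor ring (0.20 and 0.41), and Ndufa12 (0.20 and 0.36) were the next highest. Sdha (-0.21 and -0.38, on 108 and 13 UMIs) and Ndufs1 (-0.17 and -0.15) were among the lowest.

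In dividing cells the 2 genomes parted. G2/M cells, gated on 13 mitotic genes (97 and 29 cells), held nuclear members at 23797 and 23805 CPM, 0.36 (0.34 to 0.38) and 0.23 (0.19 to 0.27) above resting cells on the log2 scale. Mitochondrial members stood at 35729 and 39668 CPM, a log2 difference of -0.00066 (-0.016 to 0.014) and -0.0042 (-0.032 to 0.024), or 0.12 as a mean of both libraries by median-of-ratios scaling. Of 74 nuclear members 18 were higher in both libraries and 0 lower, where all genes were 9.15% higher and 19.4% lower. Of the 74, 57 lay above 0 in both, where the median of all measured genes was -0.13 and -0.11. By median-of-ratios scaling 37 were higher, and all genes were 13.8% higher and 12.8% lower. Among genes with at least 10 UMIs in each class, 18 of 74 were higher, where all genes were 12.8% higher and 13.8% lower. Of the 13 mitochondrial members 0 passed the bound. The genome ratio was 1.5 (1.48 to 1.53) and 1.67 (1.61 to 1.72), below that of resting cells in both libraries, and this ratio does not depend on scaling.

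Complex V held the most of these members, 7 of 15, and its nuclear sums were 0.43 (0.40 to 0.47) and 0.32 (0.25 to 0.38) above resting. Atp5j, of the stalk, went from 345 to 483 and from 377 to 604 CPM (0.48 and 0.68). Atp5o, which joins the stalk to the catalytic head, went from 187 to 299.8 and from 212 to 293 (0.68 and 0.47). Atp5b, the catalytic beta subunit, went from 308 to 452 and from 331 to 456 (0.55 and 0.46). Head and stalk genes of the enzyme were thus both higher in G2/M cells. The others were Atp5f1 of the stalk (0.48 and 0.53), the rotor shaft Atp5c1 (0.46 and 0.44), the ring subunit Atp5g2 (0.49 and 0.41) and Atp5k (0.55 and 0.38).

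Complex IV had 4 of 12 higher. Cox5b, a subunit on the matrix side, went from 378 to 628 and from 389 to 654 CPM (0.73 and 0.75), and Cox7a2 went from 351 to 515 and from 344 to 570.2 (0.55 and 0.73). Cox5a (0.60 and 0.33) and Ndufa4, whose symbol names complex I and which is counted with complex IV (0.38 and 0.43), were also higher. Complex I had 5 of 35. Ndufs8, an iron-sulphur subunit, went from 69.7 to 108 and from 78.8 to 133 CPM (0.63 and 0.76) and Ndufa12 from 71.3 to 119.5 and from 112 to 163 (0.75 and 0.54), with Ndufb8 (0.44 and 0.46) and Ndufc1 (0.46 and 0.44) also among them. Complexes II and III gave 1 each, Sdhb (0.38 and 0.61) and Uqcr10 (0.63 and 0.38). The lowest nuclear members were Ndufs7 (-0.13 and -0.16), Sdha (-0.091 and -0.33) and Ndufa6 (-0.066 and -0.13).

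**Figure D3:**
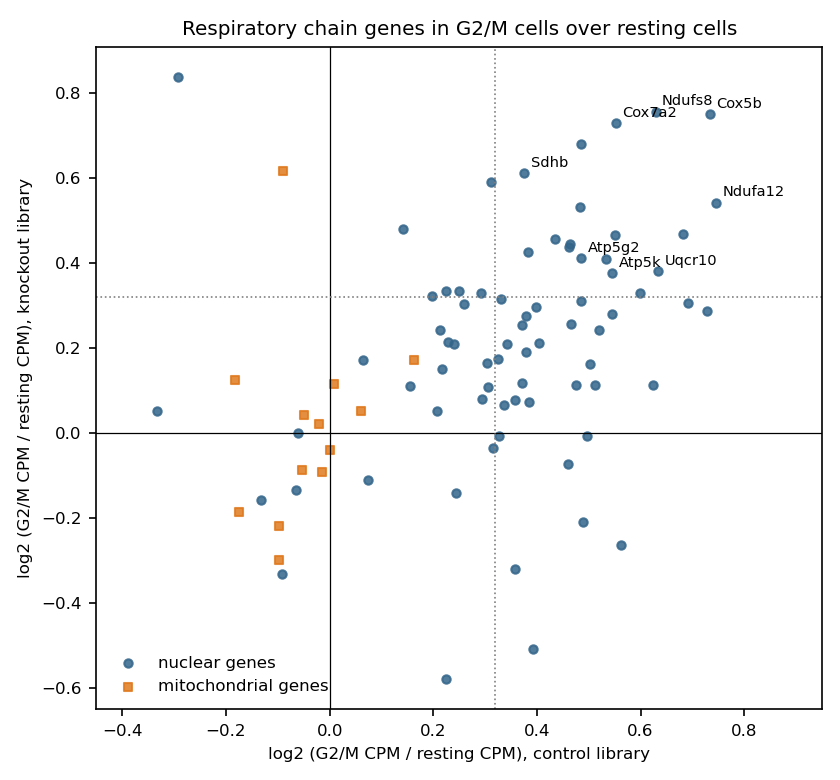
Log2 ratio of CPM, G2/M over resting cells, of each measured gene, control library against knockout library. Most nuclear genes lie above 0 in both, Cox5b at 0.73 and 0.75, and the 13 mitochondrial genes do not pass 0.32 in both.

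The mitochondrial genes were not uniform. mt-Cytb went from 2696 to 3020 and from 3065 to 3452 CPM (0.16 and 0.17), and mt-Nd2 from 1956 to 1732 and from 1928 to 1695 (-0.17 and -0.19). G2/M cells were deeper than resting cells, with median UMIs of 9675 and 9356. Among cells of at least 7000 UMIs (71 and 22 in G2/M), 19 of 75 nuclear members were higher and 0 lower, where all genes were 10.2% higher and 18.4% lower. NK transcripts kept out of the gates stood at 22728 and 28276 CPM in G2/M and 31172 and 38501 in resting cells, and Malat1 at 9329 and 11062 and 22249 and 22686. Their part in the result was not tested.

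Of the 83 nuclear symbols, 66 have an entry in the RefSeq promoter table (GRCm38.p6, 250 bases before to 50 after the start), 62 of them measured. Letters of known factors of these genes were searched on both strands. The NRF1 motif, GCGCA and GCGC with any 1 base between them, was in 17 of the 62 (27.4%), against 13.9% of all measured genes and 5.19% of all promoters. The YY1 motif AANATGGCG was in 10 (16.1%, against 8.0% of measured genes), and the GABP motif CCGGAAG in 16 (25.8%, against 25.8%). CCAAT was in 26 (41.9%, against 42.4%) and the ERR motif TCAAGGTCA in 2 (3.23%, against 0.342%). None of these motifs contains another. Of the 16 promoters of members higher in G2/M, 4 held the NRF1 motif. The 2 shown are those with a single entry and a match before the start, in capitals, which begins 42 bases (Atp5g2) and 50 bases (Atp5k) before it.
Atp5g2 (chr15:102671048-102671297, minus strand): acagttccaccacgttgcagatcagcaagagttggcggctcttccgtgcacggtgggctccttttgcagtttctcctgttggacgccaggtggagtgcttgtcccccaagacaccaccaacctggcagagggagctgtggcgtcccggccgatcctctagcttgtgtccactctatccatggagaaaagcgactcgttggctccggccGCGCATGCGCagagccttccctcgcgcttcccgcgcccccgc
Atp5k (chr5:108434400-108434649, minus strand): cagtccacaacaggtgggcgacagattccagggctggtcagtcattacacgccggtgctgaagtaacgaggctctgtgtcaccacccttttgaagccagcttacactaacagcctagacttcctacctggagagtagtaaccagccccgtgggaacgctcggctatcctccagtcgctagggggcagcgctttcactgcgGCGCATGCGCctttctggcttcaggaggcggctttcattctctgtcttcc
Atp5g2 went from 402 to 563 and from 437 to 582 CPM in G2/M cells, and Atp5k from 266 to 388 and from 325 to 422. A match of letters is a description and places no factor there.

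S phase cells (542 and 162 cells) differed less from resting cells. They too were deeper, with median UMIs of 8412.5 and 6745.5, against 5516 and 3741.5 in resting cells. Values for cells of at least 7000 UMIs are given at the end. No member passed the bound in both libraries, where all genes were 1.88% higher and 1.40% lower. The nuclear sums differed by 0.077 (0.067 to 0.087) and 0.038 (0.019 to 0.056) and the mitochondrial sums by -0.0063 (-0.013 to 0.00079) and -0.025 (-0.039 to -0.012), and the genome ratio was 1.82 and 1.88. Complex V had the highest nuclear sums, 0.12 (0.10 to 0.14) and 0.10 (0.068 to 0.14). Ndufb2 (0.31 and 0.38), Atp5g3 (0.26 and 0.33) and Ndufa12 (0.34 and 0.21) were the highest members. Ndufa6 (-0.20 and -0.15), Uqcrh (-0.14 and -0.12) and Cox7a2l (-0.19 and -0.038) were the lowest.

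**Figure D4:**
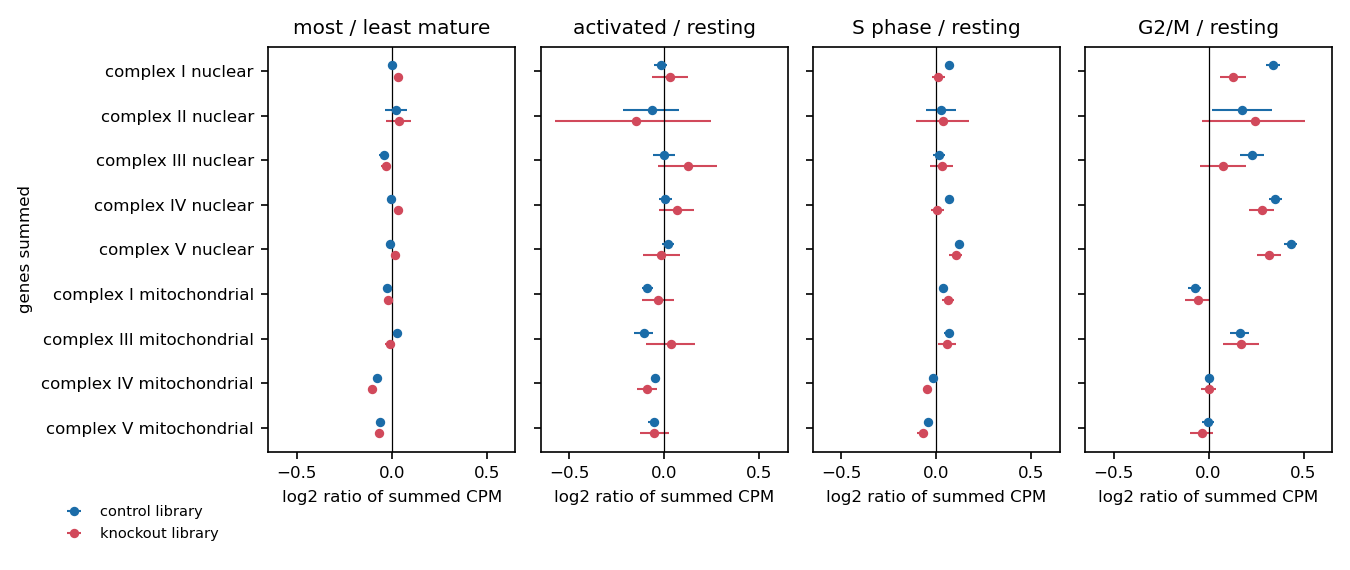
Log2 ratio of summed CPM over resting or least mature cells for the genes of each complex and genome, by NK state and library, with 95% counting intervals. The G2/M sums of nuclear complex V, 0.43 and 0.32, are the highest among nuclear sums in both libraries.

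The supporting genes were mixed in G2/M cells, where 9.15% of all genes were higher and 19.4% lower. Of 11 other subunits and carriers, 3 were higher and 0 lower: Atpif1 (1.09 and 0.72), Etfb (0.66 and 0.88) and Etfa (0.48 and 0.86). Of 16 tricarboxylic acid cycle genes, 2 were higher and 0 lower: Idh3a (0.77 and 0.83) and Mdh1 (0.70 and 0.44). Of 35 assembly factors, 2 were higher and 4 lower, with Foxred1 (0.82 and 1.48) and Sdhaf2 (0.41 and 0.60) highest and Sdhaf4 (-0.57 and -1.74) and Ttc19 (-0.57 and -1.22) lowest, on 4 and 5 knockout UMIs. Of 12 upkeep genes, 0 were higher and 3 lower, a share near that of all genes. Elac2 (-1.88 and -1.41, on 3 and 1 UMIs) and Mterf4 (-0.86 and -1.01, on 7 and 2 UMIs) were lowest, with knockout intervals that include 0. Of 9 regulators, 0 were higher and 1 lower (Tfe3, -0.32 and -1.93, on 12 and 1 UMIs, with intervals that include 0).

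The genotype difference in the nuclear sum was not the same in all NK classes. It was 0.12, 0.13 and 0.15 from the least to the most mature class, 0.16 (0.11 to 0.22) in activated and 0.091 (0.071 to 0.11) in S phase cells. In G2/M cells it was 0.00046 (-0.04 to 0.041), while the mitochondrial sum there differed by 0.15 (0.12 to 0.18). G2/M cells had nearly equal median depth in the 2 libraries. They held G2/M genes at 2181 and 3961 CPM and red cell genes at 161.7 and 15.2 CPM. The maturation classes were cut at different scores in the 2 libraries. Mature markers stood at 710 and 429 CPM in the least mature class and at 2290 and 2280 CPM in the most mature. The part of depth and of these differences between the classes was not tested.

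The ILC1 gate (87 and 225 cells), named for tissue-resident relatives of NK cells, gave values near those of resting NK cells. It was set within the NK gate, and its cells held NK gate genes at 5246 and 5295 CPM, against 5914 and 6062 in resting cells. Mature markers stood at 1193 and 1011 CPM, against 1432 and 1209, and less mature markers at 3244 and 3584, against 2071 and 2779. Whether these cells are ILC1 was not tested. No member passed the bound in both libraries, where all genes were 4.78% higher and 4.83% lower. The nuclear sums differed by -0.027 (-0.056 to 0.0019) and -0.0039 (-0.024 to 0.016) and the mitochondrial sums by 0.061 (0.041 to 0.081) and 0.038 (0.024 to 0.052). Cox6c (0.15 and 0.21), Uqcrb (0.12 and 0.14) and Uqcrfs1 (0.24 and 0.11) were highest, and Atp5k (-0.20 and -0.14), Ndufa3 (-0.19 and -0.14) and Atp5o (-0.12 and -0.12) lowest.

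Macrophages left in the sort (36 and 131 cells) differed from resting NK cells gene by gene. They held macrophage genes at 9819 and 12919 CPM, against 3.54 and 7.92 in resting NK cells, and G2/M genes at 508 and 157 CPM, against 40.2 and 29.2. Their median depth was 1175.5 and 1418 UMIs, against 5516 and 3741.5 in resting NK cells, and the part of depth was not tested. Of 74 nuclear members 13 were higher and 2 lower, where all genes were 14% higher and 38.4% lower (18% and 30.8% by median-of-ratios scaling, with 21 members higher), and the nuclear sums differed by 0.14 (0.06 to 0.22) and 0.11 (0.074 to 0.15). Among genes with at least 10 UMIs in each class, 7 of 46 were higher and 1 lower, where all genes were 20% higher and 34.0% lower, so the share of higher members then fell below the background. Ndufc2, of the membrane arm of complex I, went from 89.9 to 361 and from 115 to 309 CPM from resting NK cells to macrophages (2.0 and 1.42). Cox5a went from 245 to 623 and from 266 to 816 (1.35 and 1.62), and complex II had 3 of its 4 genes higher, Sdhc most (1.02 and 1.59, on 5 and 36 UMIs). Atp5h (-0.51 and -0.35) and Uqcrc2 (-0.32 and -0.80) were lower, and Ndufa10 (-0.75 and -0.29) was below 0 without passing the bound in both.

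The mitochondrial sums of macrophages differed by 0.35 (0.29 to 0.40) and 0.44 (0.41 to 0.46), with mt-Co1 (0.47 and 0.61), mt-Co3 (0.48 and 0.52), mt-Cytb (0.41 and 0.67) and mt-Nd6 (1.44 and 1.70, on 9 and 21 UMIs) higher. This value moves with the filter on the same genes. The genome ratio was 2.22 and 2.45 as filtered, 2.96 and 3.05 with no limit on mitochondrial UMIs and 1.49 and 1.36 with a limit of 5%, which left 17 and 53 cells. In resting NK cells it was 1.98 and 1.97 with no limit and 1.86 and 1.83 with a limit of 5%.

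Cells high in MHC class II (76 and 108 cells, with class II genes at 16874 and 21409 CPM) had the lowest genome ratio, 0.895 (0.852 to 0.940) and 1.19 (1.15 to 1.23). Nuclear members summed to 23792 and 24134 CPM and mitochondrial members to 21296 and 28639 CPM. With no mitochondrial limit the ratio was 0.958 and 1.3. Malat1, an RNA of the nucleus, stood at 445 and 2583 CPM there and NK transcripts kept out of the gates at 2739 and 1584 CPM, and the median depth was 1666 and 1947.5 UMIs. Genes of the G2/M gate stood at 466 and 617 CPM, against 40.2 and 29.2 in resting NK cells, and S phase genes at 1272 and 442, against 282 and 302. Their part in the result was not tested.

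In these cells 10 of 13 mitochondrial members were lower in both libraries. Of the nuclear members 17 were higher and 2 lower, where all genes were 8.69% higher and 59.2% lower. Among genes with at least 10 UMIs in each class, 17 of 67 nuclear members were higher and 0 lower. All genes were then 20.3% higher and 44.4% lower, so the share of higher members lay nearer the background. mt-Atp6 went from 7741 to 4540 and from 9255 to 6391 CPM (-0.77 and -0.53) and mt-Nd5 from 485 to 167 and from 469 to 227 (-1.54 and -1.05). Cox7a2l went the other way, from 409.6 to 751 and from 455 to 1082 (0.87 and 1.25), as did Ndufc1 (0.84 and 0.76) and Atp5c1 (1.0 and 0.74). Ndufa10 (-0.99 and -0.63) and Ndufs1 (-1.42 and -2.18, on 2 and 2 UMIs) were lower. The median of all genes was itself -0.62 and -0.83, and by median-of-ratios scaling the mitochondrial sums stood 0.11 higher as a mean of both libraries, with 61 nuclear members higher and all genes 22.4% higher and 36.0% lower. The direction of the mitochondrial sum thus depends on scaling, and its ratio to the nuclear sum does not.

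**Figure D5:**
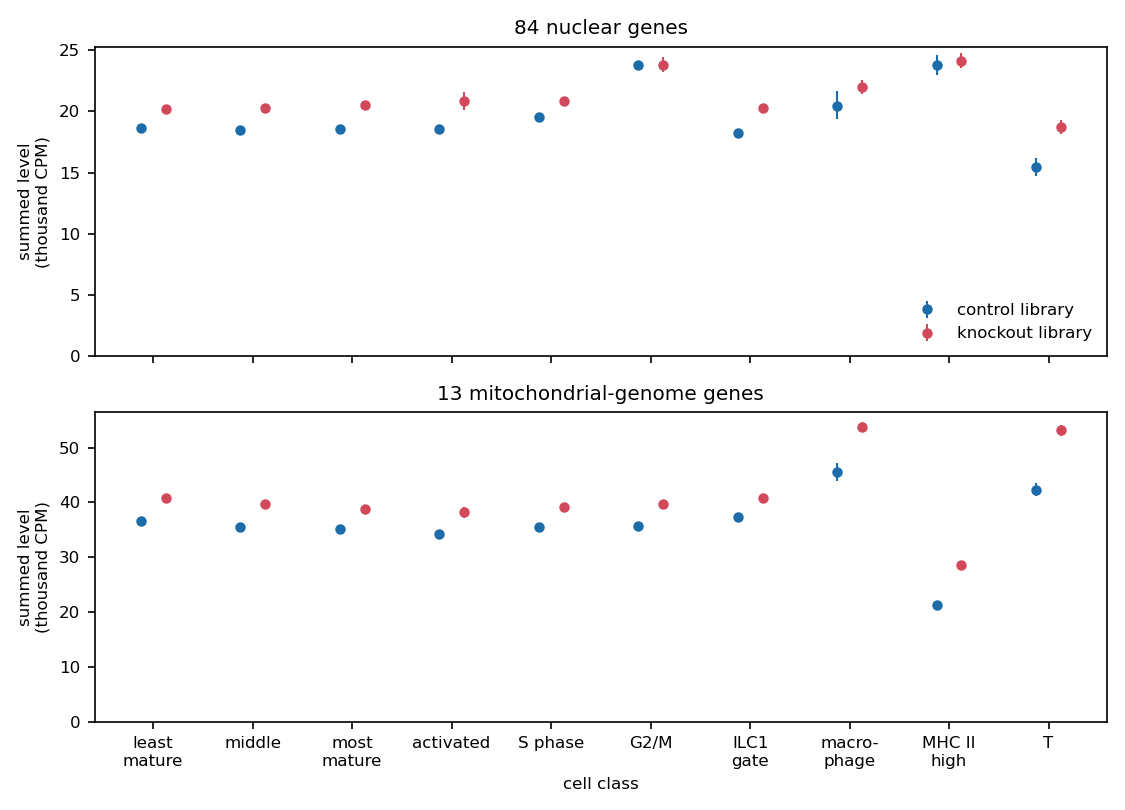
Summed level of nuclear and mitochondrial respiratory chain genes by cell class and library. The mitochondrial level is lowest in MHC class II-high cells, at 21296 and 28639 CPM, and the nuclear level in G2/M cells, at 23797 and 23805 CPM, lies above that of resting cells.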

How the data were processed

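The deposited matrices hold raw counts, each the number of UMIs of a gene in a barcode, with no normalization per the file headers and the values. The submitters' processing notes name STAR, Cell Ranger 3.0.0, Seurat and GRCm39, with no role or order; the strand and intron settings of the counting are not given in the sources used here. Positions and exon lengths came from GENCODE M21 (GRCm38), which held all 97 members. The deposited tables hold 69853026 control and 42795121 knockout UMIs over 11785 and 10615 barcodes.

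The cell filter asked for 500 detected genes and a mitochondrial share of no more than 10%, and no doublet caller was run. Classes came from marker UMIs: NK cells from 8 genes (at least 3 UMIs over 2 genes), maturation from 9 mature and 10 less mature genes, S phase from 17 genes. UMIs were summed per class and library, and ratios carry exact conditional binomial 95% intervals. Comparisons within libraries count a gene only if it passed 0.32 in the same direction in both; a class needed 20 cells in each. Named by rule are the mitochondrial genes, the 3 highest and 3 lowest nuclear members of each comparison (within libraries by the smaller of the 2 ratios), the most abundant member of each complex, the isoform pairs, the 4 Sdh genes and the 2 highest and 2 lowest genes of each supporting list; other named genes were chosen after their values were seen. The members, gene lists and gates were chosen with earlier results of these data known, so list counts are descriptions. Alternatives changed the scaling, filters, gates, bound and measured level. The calls were also run on simulated counts, where unchanged genes were called more often in the G2/M comparison than in that between the libraries. Software was Python 3.11.15 with pandas 2.3.3, numpy 2.4.6, matplotlib 3.10.9 and scipy 1.17.1. No column of another sample was found in the files. Values of 1 member are not reported here.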

Additional observations from a re-analysis of the deposited data

Results flagged for a closer look

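From the least to the most mature resting NK cells, the summed nuclear members differed in opposite directions in the 2 libraries, by -0.0075 on the log2 scale in the control and by 0.021 in the knockout. Each interval for counting error excludes 0, both values are small, and with 1 library per genotype the difference between them was not tested.

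The T cell gate, which enters no comparison because the control holds too few of these cells, had the highest genome ratio of the classes under the 10% mitochondrial limit. Mitochondrial members outnumbered nuclear members by a ratio of 2.74 in 16 control cells and 2.84 in 46 knockout cells, against 1.93 and 1.96 in resting NK cells. With no limit on mitochondrial UMIs the T cell ratios were 2.86 and 3.01, and macrophages reached 2.96 and 3.05. With a limit of 5% the T cell ratios were 2.68 in 15 control cells and 1.84 in 16 knockout cells, the latter close to the 1.83 of resting cells, so in the knockout library the value rests on cells above that limit.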

How the results depend on the processing

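No paired analysis was possible because each group has 1 library. Of 162 summed values under other settings, 154 kept the sign of the value reported. Values below are log2 differences of summed CPM, as means of both libraries except for the genotype, or counts of members past the bound. The cause of these changes was not tested.

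By median-of-ratios scaling the genotype sums became 0.195 (nuclear) and 0.219 (mitochondrial), with 22 nuclear and 2 mitochondrial members higher. The maturation sums became -0.0357 and -0.106, the activated sums 0.0879 and 0.00785, and the G2/M sums 0.416 and 0.119, with 37 nuclear members higher. S phase gave 0.0727 and -0.000593, with 1 nuclear member higher. Macrophages gave 0.325 and 0.589, with 21 nuclear members higher and 0 lower. MHC class II-high cells gave 1.03 and 0.114, with 61 nuclear members higher, 1 nuclear and 1 mitochondrial member lower, and the sign turned for mt-Co2 (0.211), mt-Nd3 (0.150), mt-Atp6 (0.0729) and mt-Nd4l (0.0383).

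With a mitochondrial limit of 5%, the mitochondrial sums were 0.110 for the genotype, -0.0305 in G2/M, 0.0163 in S phase and -0.938 in MHC class II-high cells, and the genome ratio was 1.86 and 1.83 in resting and 1.48 and 1.48 in G2/M cells. With no limit they were 0.131 for the genotype, -0.0535 for maturation, -0.0375 in S phase (1 nuclear member higher), 0.695 in macrophages (12 mitochondrial members higher) and -0.522 in MHC class II-high cells, with ratios of 1.98 and 1.97 in resting and 1.54 in control G2/M cells.

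Gates from cells thinned to 2000 UMIs gave genotype sums of 0.123 and 0.159, ILC1 sums of 0.0191 and 0.0691 (1 mitochondrial member lower), MHC class II-high sums of 0.212 and -0.536 (4 nuclear members lower) and resting ratios of 1.92 and 1.97. A mean over cells gave a nuclear genotype sum of 0.139, mitochondrial sums of -0.00429 in S phase and 0.484 in macrophages (7 members higher), and resting ratios of 1.91 and 1.94. CPM without mitochondrial genes gave genotype sums of 0.137 and 0.161 and 1 nuclear member lower in macrophages. Resting cells with no UMI of other cell types, platelets or red cells (5177 and 5115 cells) gave genotype sums of 0.139 and 0.159.

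Strict maturation gates gave -0.0346 and -0.0400, with 1 nuclear member lower and 1 mitochondrial member higher, and the stricter activated gate a nuclear sum of -0.0341. With the bound at 0.58, 1 nuclear member was higher for the genotype, 2 in G2/M, 8 in macrophages (0 lower, 1 mitochondrial higher) and 8 in MHC class II-high cells (6 mitochondrial lower). Measured at 1 CPM, 1 nuclear member was higher in activated cells, 1 lower in the ILC1 gate and 4 lower in macrophages. At 50 CPM, 0 mitochondrial members were lower for the genotype, since mt-Nd6 is no longer measured, and 1 nuclear member was lower in MHC class II-high cells. Adjusted for exon length, 6 nuclear members were higher and 1 lower for the genotype, and 1 was higher in S phase.

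Some settings were chosen after seeing the data. Requiring 10 UMIs per class left 7 of 46 nuclear members higher and 1 lower in macrophages (all genes 20% and 34.0%). In MHC class II-high cells it left 17 of 67 higher and 0 lower (all genes 20.3% and 44.4%). In cells of at least 7000 UMIs the mitochondrial sums were -0.0428 in G2/M and -0.0513 in S phase, where 1 nuclear member was higher. In resting cells of 4000 to 4999 UMIs the mitochondrial genotype sum was 0.263, with 1 member higher. The stricter G2/M gate, the thinned gates for activated, G2/M, S phase and macrophage cells, and the 5% limit for macrophages gave no value, since a class fell under 20 cells.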
